A study of Mus musculus with 30 samples.

Results

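Markers of dendritic and plasmacytoid cells were followed in platelet RNA and peripheral blood mononuclear cell (PBMC) RNA of mice at different stages of melanoma. The 10 genes, Siglech, Tcf4, Irf8, Flt3, Xcr1, Clec9a, Cd209a, Zbtb46, Runx2 and Cd300c, were taken by symbol from the 54532 genes of the count tables, and all 10 were present. C57BL/6 mice had been injected under the skin of the right flank in a volume of 100 μl. C group received Hank's balanced salt solution alone, S group received 2000 B16F10 cells and had no visible tumor at autopsy on day 14, and O group received 100000 B16F10 cells and is labelled as carrying large tumors. B16F10 is a mouse melanoma cell line, so each tumor in these mice comes from cells grown in culture rather than from the animal's own skin. Each group gave 5 platelet libraries and 5 PBMC libraries, 30 in all. A library held the RNA of 3 to 10 mice by the labels, the O pools being the smallest with 3 to 5 mice, and the methods list slightly different numbers for some S pools of platelets. Replicates were therefore pools, and the spread within a group is the spread between pools.

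Dendritic cells take up and present antigen to T cells, and they are rare in blood. Plasmacytoid cells release type I interferon when they sense nucleic acids, and their fate depends on the transcription factor encoded by Tcf4, which binds E-box sequences. Runx2 is a further factor of plasmacytoid cells, and Siglech encodes their surface lectin, which signals through an adaptor protein. Irf8 is needed for plasmacytoid cells and for type 1 conventional dendritic cells, whose members display the chemokine receptor Xcr1 and the lectin Clec9a, a receptor for actin exposed by dead cells. Cd209a, a relative of human DC-SIGN, marks type 2 and monocyte-derived dendritic cells. Zbtb46 is a transcription factor of conventional dendritic cells, and Flt3 is the cytokine receptor through which the whole lineage is maintained. Cd300c belongs to a family of paired immunoglobulin receptors. Platelets carry RNA passed on by megakaryocytes, and a platelet preparation can also contain other blood cells.

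Promoter windows of RefSeq (GRCm38.p6, from 250 bases before to 50 bases after a listed start, 5′ to 3′ on the gene's strand) were matched for 9 of the 10 genes. Those of Siglech, Xcr1 and Flt3 are shown because Siglech is the plasmacytoid marker that varied most between PBMC pools, and Xcr1 and Flt3 are the genes at the ends of the difference between platelets and PBMCs. Capitals mark E-boxes (CANNTG, the letters bound by the Tcf4 family) and the RUNX core (TGTGGT), searched on both strands.
Siglech (chr7:55767934-55768233, plus strand): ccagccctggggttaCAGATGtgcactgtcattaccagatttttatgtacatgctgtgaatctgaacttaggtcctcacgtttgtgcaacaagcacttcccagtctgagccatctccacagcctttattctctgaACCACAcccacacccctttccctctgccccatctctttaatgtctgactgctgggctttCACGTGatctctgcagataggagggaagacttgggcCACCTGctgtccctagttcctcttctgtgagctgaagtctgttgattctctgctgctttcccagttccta
Xcr1 (chr9:123861980-123862279, minus strand): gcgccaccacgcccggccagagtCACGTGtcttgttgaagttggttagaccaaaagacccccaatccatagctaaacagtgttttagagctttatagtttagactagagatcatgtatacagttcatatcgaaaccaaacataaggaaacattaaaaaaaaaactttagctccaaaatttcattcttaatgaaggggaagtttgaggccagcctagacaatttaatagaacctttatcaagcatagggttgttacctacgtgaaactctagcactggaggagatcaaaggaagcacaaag
Flt3 (chr5:147400440-147400739, minus strand): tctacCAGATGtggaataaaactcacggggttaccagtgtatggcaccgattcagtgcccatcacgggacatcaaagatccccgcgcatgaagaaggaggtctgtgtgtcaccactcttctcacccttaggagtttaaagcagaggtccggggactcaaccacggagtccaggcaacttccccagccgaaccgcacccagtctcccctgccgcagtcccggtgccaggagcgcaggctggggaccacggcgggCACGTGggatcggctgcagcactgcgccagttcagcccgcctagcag
The E-box was found in a window of each of the 9 genes, and 72.3% of all 32851 windows of this length hold it. For Irf8 it was in the second window only (chr8:120738389-120738688). That window, the Zbtb46 window (chr2:181424339-181424638) and the Cd300c window (chr11:114960458-114960757) lie wholly inside the GENCODE spans of these genes. Their matches are thus not at the start of the span. Siglech, Runx2 and Cd300c windows hold the RUNX core, which occurs in 16.8% of windows. An ETS-IRF composite (GGAA and GAAA 2 bases apart) was found for Cd209a alone among the 9, against 2.72% of all windows, and an IRF repeat (GAAA and GAAA 2 bases apart) for Cd300c alone, against 3.44%. The PU.1 letters GAGGAA were found for Siglech alone (28.3% of windows) and the GATA letters AGATAA for none (11.2%). These matches describe the letters of the windows and are not binding sites.

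The genes lie on 9 chromosomes of the mouse assembly GRCm38 (GENCODE M21), and all are protein-coding. Siglech is at chr7:55768178-55778925, Tcf4 at chr18:69343356-69689079, Irf8 at chr8:120736358-120756694, Flt3 at chr5:147330741-147400489 and Zbtb46 at chr2:181387762-181459426. Xcr1 is at chr9:123852315-123862029, Clec9a at chr6:129408862-129424763, Cd209a at chr8:3743397-3748984, Runx2 at chr17:44495987-44814797 and Cd300c at chr11:114956116-114969157. The count tables hold no positions. The submitters' processing notes name mm9, and the gene identifiers matched GENCODE M21 in 54409 of 54532 cases. Counting with or without strand is not given in the sources used here, so reads shared with an overlapping gene cannot be assigned. This touches Clec9a, which shares 184 exonic bases, 5.59% of its exons, with the platelet gene Clec1b on the same strand, and Runx2, which shares 519 exonic bases with the antisense gene Runx2os1. Cd209a and Cd300c belong to families of similar genes, whose reads could have been divided among the relatives.

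Total counts on genes ran from 12259036 to 25360080 in platelets and from 13390983 to 15973449 in PBMCs. The sample types matched their labels in that 9 of 9 tested platelet and megakaryocyte markers were higher in the platelet libraries, although these samples carry PBMC as their cell type in the labels. Hemoglobin genes took 4.02% to 39.0% of platelet counts and 3.23% to 24.5% of PBMC counts. O pool 1 stood apart in both sample types, with the largest hemoglobin share of each, and its TMM scaling factor within the sample type was 0.554 in platelets and 0.551 in PBMCs. S pool 3 of PBMCs stood apart in another way, with 32900 genes detected, where the PBMC median was 22253. That pool enters every PBMC comparison with S group. Values without single pools are therefore also given for calls of the dendritic and plasmacytoid markers and for some lists of other blood cells. They are not given for the further lists of dendritic cell genes and of partners, where calls may rest on single pools. Levels are counts per 1000000 (CPM) after TMM scaling among the 15 libraries of a sample type, so that a platelet level and a PBMC level stand on separate scales, except where the sample types are compared, which was done with TMM over all 30 libraries. A gene was called, and is said to have passed, risen or fallen, at an unadjusted P under 0.05 by edgeR's quasi-likelihood test, and the P values printed are adjusted over all genes tested by the Benjamini-Hochberg method.

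Irf8 was the most abundant of the 10 genes per length of exon in both sample types, at 35.2 ± 2.40 CPM per kb in PBMCs and 15.9 ± 2.74 CPM per kb in platelets (mean ± SD, n = 15). Its share of the summed CPM of the 10 genes was 58.0% in PBMCs and 61.5% in platelets. In PBMCs it was followed by Cd209a with 7.71 ± 2.57 CPM per kb and Runx2 with 5.26 ± 0.886, which overlapped within 1 SD. Runx2 lay above Flt3 (3.35 ± 0.853 CPM per kb) by more than both SDs. Flt3 and Tcf4 (3.14 ± 0.518) did not differ beyond their spread, nor did Tcf4 and Siglech (1.87 ± 1.02), Siglech and Clec9a (1.23 ± 0.364), or Clec9a and Cd300c (0.973 ± 0.517). Zbtb46 at 0.321 ± 0.101 CPM per kb and Xcr1 at 0.273 ± 0.120 were the lowest in PBMCs and overlapped each other. In platelets Clec9a (2.30 ± 1.27 CPM per kb) and Xcr1 (1.73 ± 0.787) followed Irf8. Tcf4 (1.35 ± 0.301), Cd209a (1.15 ± 0.691), Siglech (0.941 ± 0.375), Runx2 (0.893 ± 0.209), Cd300c (0.482 ± 0.265), Zbtb46 (0.252 ± 0.0720) and Flt3 (0.212 ± 0.122 CPM per kb) came after them. Below Irf8, every neighbouring pair in the platelet order overlapped within 1 SD. These are bulk libraries, and which blood cells carried the reads of Irf8, Tcf4 or the other genes was not tested. The levels are therefore not a measure of dendritic cell content.

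The genes differed in how evenly the pools carried them. Irf8 varied least, with a coefficient of variation of 6.84% over the 15 PBMC libraries and 17.2% over the platelet libraries. Siglech had the highest coefficient of variation in PBMCs, 54.5%, with a 7.23-fold range of CPM. Clec9a spanned a 41.1-fold range in platelets, where O pool 1 held 3 counts of it, against 72 to 294 counts in the other 14 platelet libraries. Cd300c was close to the detection limit in platelets, with 1 to 16 counts per library, and did not pass the filter on low counts there.

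**Figure D1:**
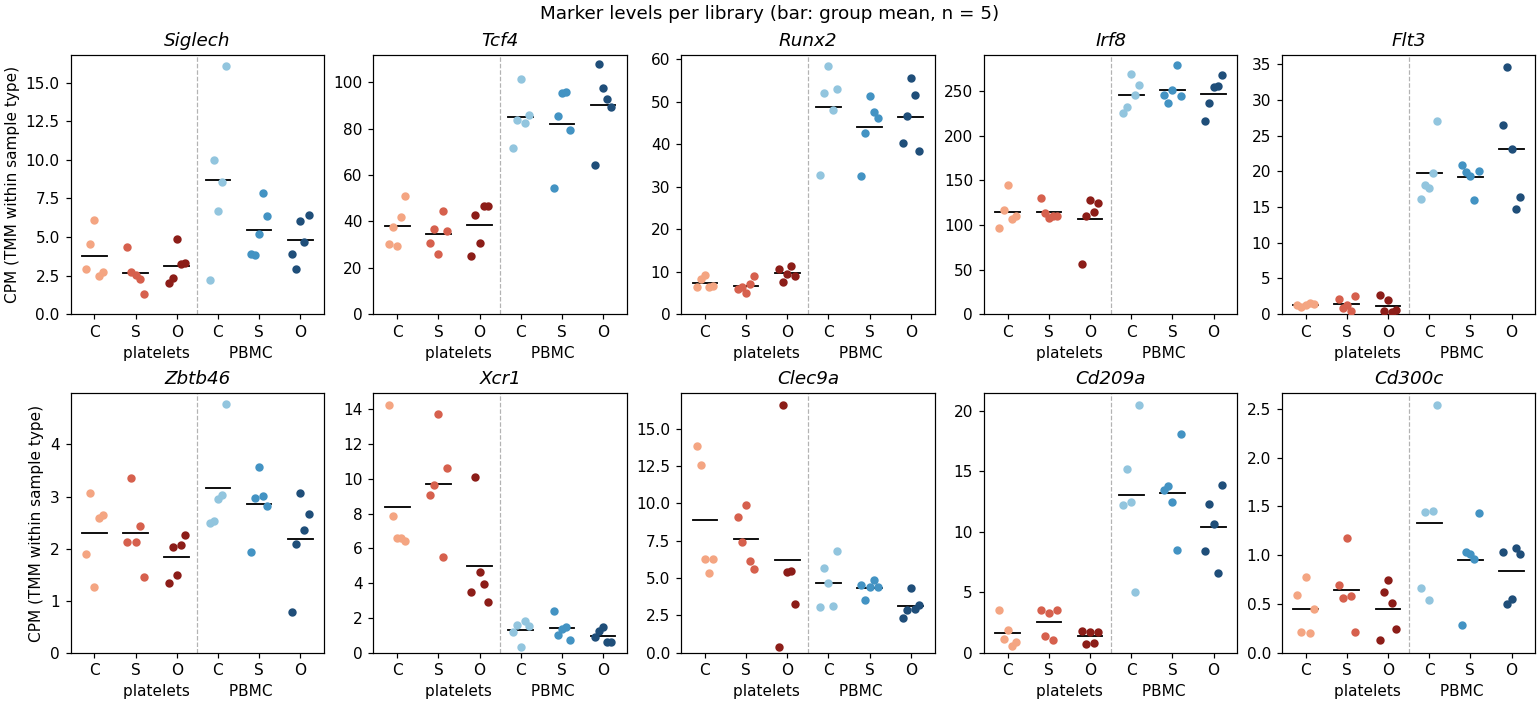
CPM of each of the 10 genes in every library, by group (C, S, O) and sample type, with TMM scaling within each sample type. Points are libraries and bars are group means of 5 pools; levels are to be read within a sample type, since the scales left and right of the dashed line are separate. The O pools of platelets reach both ends for Clec9a (0.403 and 16.5 CPM), and Siglech is spread widest among the C pools of PBMCs (2.22 to 16.1 CPM).

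The comparison of platelets with PBMCs asked which of the markers a platelet preparation carries beyond what mononuclear cells carry. By the labels, the platelet and PBMC pools of equal number held equal numbers of mice in each pair of O group only. The methods took PBMCs from the lower layer of the spun blood that gave the platelets, so the sample types can share mice. The main fit treats the 30 libraries as independent. With pools of equal group and number as a block, log2 fold changes were 3.86 for Xcr1, 1.99 for Clec9a and 0.90 for Zbtb46. They were −2.87 for Flt3, −1.615 for Cd209a and −1.325 for Runx2, each still called. Xcr1 was the gene most in excess in platelets. On the scale of all 30 libraries its lowest, median and highest levels were 4.77, 10.3 and 21.4 CPM in platelets and 0.215, 0.811 and 1.62 CPM in PBMCs. Every platelet library thus exceeded every PBMC library. In the fit over all 30 libraries the log2 fold change of Xcr1 was 3.86 (SE 0.23, adjusted P = 1.89e-15). Clec9a, the second marker of type 1 cells, ran from 0.578 through 9.63 to 27.4 CPM in platelets and from 1.38 through 2.83 to 4.54 CPM in PBMCs. The sample types overlapped through platelet O pool 1 alone, the other 14 platelet libraries lying above every PBMC library. Its log2 fold change was 2.16 (SE 0.26, adjusted P = 5.92e-09).

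Flt3 was the gene furthest below its PBMC level, with 0.414, 1.86 and 3.85 CPM (lowest, median, highest, all-library scale) in platelets and 9.06, 13.0 and 22.3 CPM in PBMCs. The lowest PBMC library was above the highest platelet library, and the log2 fold change was −2.80 (SE 0.23, adjusted P = 1.56e-12). Cd209a ran from 0.825 through 2.51 to 5.26 CPM in platelets and from 3.30 through 8.01 to 13.7 CPM in PBMCs. The sample types overlapped, with 11 platelet libraries below every PBMC library, and its log2 fold change was −1.56 (SE 0.23, adjusted P = 3.94e-07). Runx2 did not overlap, with 7.53, 12.6 and 18.5 CPM in platelets against 21.5, 31.2 and 37.4 CPM in PBMCs and a log2 value of −1.33 (SE 0.11, adjusted P = 9.00e-13).

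Zbtb46 gave a log2 fold change of 0.90 (SE 0.17, adjusted P = 2.37e-05) in this fit, and −0.33 (adjusted P = 0.165, not called) when only total counts were used for scaling. For Siglech (0.29, adjusted P = 0.227), Irf8 (0.10, adjusted P = 0.298), Tcf4 (0.04, adjusted P = 0.734) and Cd300c (0.23, adjusted P = 0.455) no difference passed the threshold with TMM. Of the 10 genes, 3 were called higher and 3 lower in platelets at an unadjusted P under 0.05, where 81.8% of the 16498 genes tested were called (36.1% of all genes higher and 45.7% lower). The count of 6 of 10 was thus below the share of all genes. On the all-library scale the platelet and PBMC libraries did not overlap for 3 of the 10 genes, Xcr1, Flt3 and Runx2, against 24.4% of all genes tested. Tcf4 ran from 36.03 through 55.5 to 79.8 CPM in platelets and from 36.8 through 56.9 to 69.6 CPM in PBMCs, and Irf8 from 80.9 through 173.8 to 210.9 CPM and from 128.0 through 162.1 to 183.0 CPM. Both overlapped, and their log2 fold changes were near 0 (SE 0.12 for Tcf4, SE 0.09 for Irf8).

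The scale decided these directions. The median log2 fold change of all genes was −0.17 with TMM over all 30 libraries and −1.38 with total counts alone, the TMM factors being 0.386 to 1.01 in platelets and 0.931 to 1.77 in PBMCs. With total counts Siglech, Tcf4, Irf8, Zbtb46 and Cd300c turned to lower in platelets, and 9 of the 10 genes were called. Of the 16498 genes tested 15079 were then called, 12728 of them lower, so most genes were called with this scale. Siglech (adjusted P = 0.00146), Tcf4 (adjusted P = 3.62e-07), Irf8 (adjusted P = 3.05e-07) and Cd300c (adjusted P = 0.00323) were then called lower, and Zbtb46 was not called. Relative to the median of all genes, the values were close under both scalings. Xcr1 lay above that median by 4.03 with TMM and 3.95 with total counts, Clec9a by 2.33 and 2.26, and Zbtb46 by 1.07 and 1.05. Siglech lay above it by 0.45 and 0.46, Irf8 by 0.27 and 0.29, and Tcf4 by 0.21 and 0.23. Flt3 was at −2.63 and −2.65 relative to the median, Cd209a at −1.39 and −1.42, and Runx2 at −1.16 and −1.15. Irf8 passed the threshold as higher in platelets when O pool 1 of platelets was left out, at a log2 value of 0.27 (adjusted P = 0.000122), and likewise without C pool 1 (0.22), S pool 3 (0.21) or O pool 5 (0.24) of platelets. In bulk RNA, fewer cells of a type and less RNA per cell cannot be told apart.

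**Figure D2:**
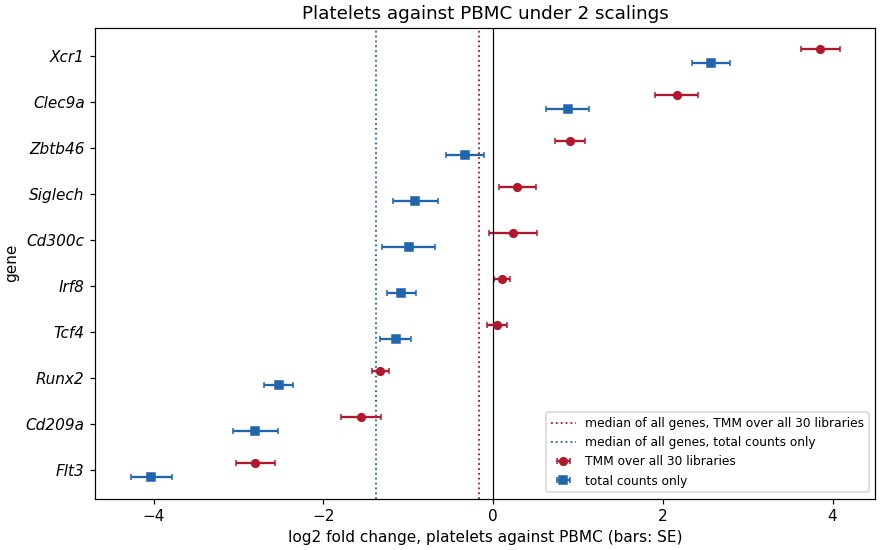
Log2 fold change of platelets against PBMCs for the 10 genes (horizontal axis, bars are SE), with TMM scaling over all 30 libraries (circles) and with total counts only (squares); dotted lines are the median of all 16498 genes under each scaling. Xcr1 and Clec9a stay above 0 and Flt3, Cd209a and Runx2 below 0 under both, and the other 5 genes change sign.

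Clec9a and Xcr1, the genes in excess in platelets, each adjoin a gene expressed in these libraries (Clec1b and Fyco1 were chosen as comparators after values were seen). Clec1b encodes the platelet receptor for podoplanin, ends within the first bases of Clec9a, and had 357573 counts in platelets and 25480 in PBMCs. Per 1000 counts of Clec1b there were 0.271 to 7.94 counts of Clec9a in platelet libraries (median 6.15) and 7.80 to 148.1 in PBMC libraries (median 41.7). In 13 of the 15 platelet libraries the ratio stayed between 4.66 and 7.94. O pool 1 had 3 Clec9a counts beside 11091 Clec1b counts, 0.271 per 1000 (exact Poisson 95% interval 0.0558 to 0.791 per 1000, for counting error only), and O pool 4 had 2.33 per 1000. Fyco1, an adaptor of vesicle transport, starts 415 bases beyond the 3′ end of Xcr1 on the same strand, and had 24158 counts in platelets and 21392 in PBMCs. Xcr1 counts per 1000 Fyco1 counts were 41.5 to 162.9 in platelets (median 79.0) and 3.89 to 29.6 in PBMCs (median 13.8), which did not overlap. The part of reads from the neighbouring transcripts in the Clec9a and Xcr1 counts was not tested.

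**Figure D3:**
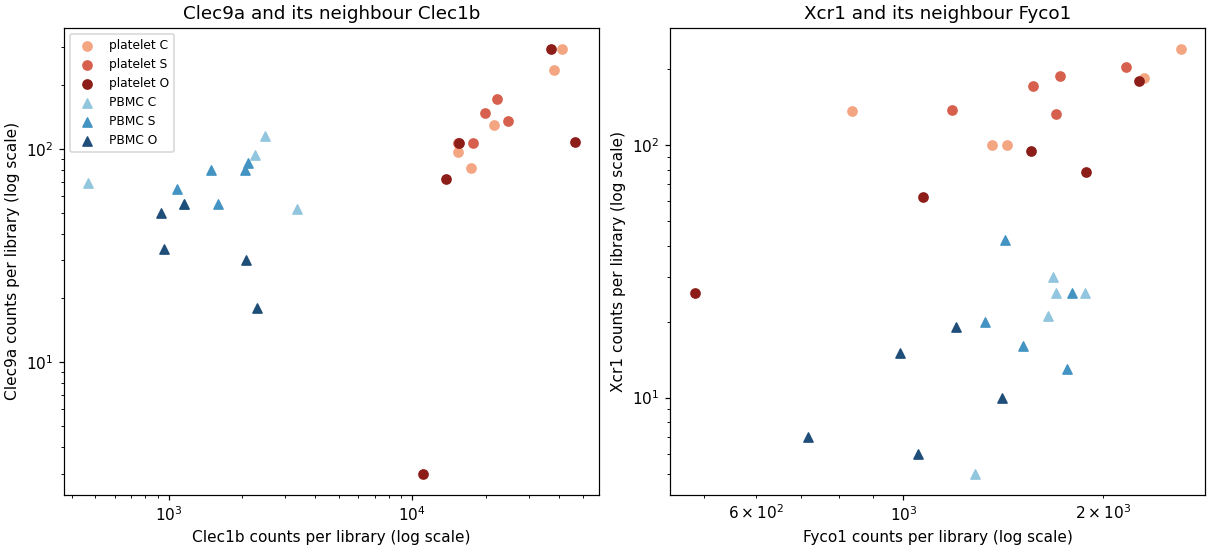
Counts of Clec9a against Clec1b (left) and of Xcr1 against Fyco1 (right) in each library, both axes logarithmic, circles for platelets and triangles for PBMCs, coloured by group. Clec9a rises with Clec1b over 13 platelet libraries, with O pool 1 (3 counts) and O pool 4 below the others, and all platelet libraries lie above the PBMC libraries in Xcr1 relative to Fyco1.

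Within platelets, the groups were compared in pairs to ask whether the markers follow the tumor stage. In S group against C group none of the 9 genes tested was called, with 6.42% of all genes called at an unadjusted P under 0.05 (adjusted P from 0.780 for Siglech upward). In O group against C group none of the 9 was called, against 4.79% of all genes. By edgeR's test 1 gene of 13268 passed an adjusted P of 0.05 in the former comparison and none of 13270 in the latter, where DESeq2 called 5 genes and 635 had an unadjusted P under 0.05. Siglech levels were 2.90, 4.57, 6.12, 2.45 and 2.71 CPM in C group, 4.35, 2.72, 2.57, 2.28 and 1.30 CPM in S group, and 2.02, 2.36, 4.85, 3.23 and 3.30 CPM in O group. These ranges overlap throughout. Irf8 means were 115.1 ± 17.99, 114.4 ± 8.83 and 106.9 ± 29.2 CPM in C, S and O group (SD, n = 5), and Tcf4 means were 38.0 ± 8.89, 34.7 ± 7.07 and 38.5 ± 9.87 CPM.

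In S group against O group of platelets 2 of the 9 genes were called, Xcr1 higher and Runx2 lower, where 13.9% of all genes were called, 7.23% higher and 6.67% lower. Xcr1 was 9.07, 9.64, 13.7, 5.50 and 10.6 CPM in the S pools, 3.49, 10.1, 4.63, 3.93 and 2.90 CPM in the O pools, and 14.2, 7.86, 6.61, 6.62 and 6.45 CPM in the C pools. Apart from O pool 2, every O pool lay below every S pool and every C pool. The log2 fold change of Xcr1 in S against O was 0.94 (SE 0.33, adjusted P = 0.297), and without S pool 3 of platelets it no longer passed at 0.76 (adjusted P = 0.497). In O against C it did not pass at −0.75 (SE 0.35, adjusted P = 0.91), but it passed without O pool 2 at −1.16 (SE 0.29, adjusted P = 0.601), with every gene kept (−0.73, adjusted P = 0.609) and with all 3 groups in 1 fit (−0.73, adjusted P = 0.712).

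Runx2 was 5.84, 6.42, 5.07, 6.99 and 8.95 CPM in the S pools of platelets, 10.8, 7.60, 9.48, 11.2 and 8.98 CPM in the O pools, and 6.52, 8.37, 9.23, 6.29 and 6.58 CPM in the C pools. A single S pool reached into the O range, and C group overlapped both. Its log2 fold change in S against O was −0.54 (SE 0.20, adjusted P = 0.303) and stayed between −0.65 and −0.47 when any pool was left out. With total counts as the scale it did not pass at −0.39 (adjusted P = 0.992). In O against C the value of 0.36 (SE 0.19, adjusted P = 0.91) did not pass, but it did at 0.45 (adjusted P = 0.873) without C pool 3 and 0.45 (adjusted P = 0.614) without O pool 2.

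Cd209a did not pass the threshold in platelets in the edgeR fit of each pair of groups. It was 3.50, 1.40, 3.30, 1.08 and 3.49 CPM in S group, 1.75, 0.676, 1.72, 0.807 and 1.74 CPM in O group and 3.50, 1.11, 1.90, 0.529 and 0.903 CPM in C group. In S group 3 pools lay above every O pool and the other 2 lay within the O range, and the log2 fold change against O group was 0.90 (SE 0.43, adjusted P = 0.371). It passed with DESeq2 (0.91, adjusted P = 0.282) and with every gene kept (0.90, adjusted P = 0.427), and also without S pool 2 (1.05, adjusted P = 0.373), S pool 4 (1.14, adjusted P = 0.292) or O pool 5 (1.08, adjusted P = 0.304). Against C group, it was 0.67 (SE 0.47, adjusted P = 0.797), and passed at 1.13 (adjusted P = 0.385) without C pool 1, while Siglech passed in that comparison without S pool 1 (−0.78, adjusted P = 0.947). For Clec9a, O pools 1 and 2 lay at the ends of the whole platelet range with 0.403 and 16.5 CPM, the log2 fold change in O against C was −0.51 (SE 0.60, adjusted P = 0.927), and without O pool 2 it passed at −1.26 (adjusted P = 0.614). Zbtb46, Flt3, Irf8 and Tcf4 were not called in any of the 3 platelet comparisons, nor when any single pool was left out.

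**Figure D4:**
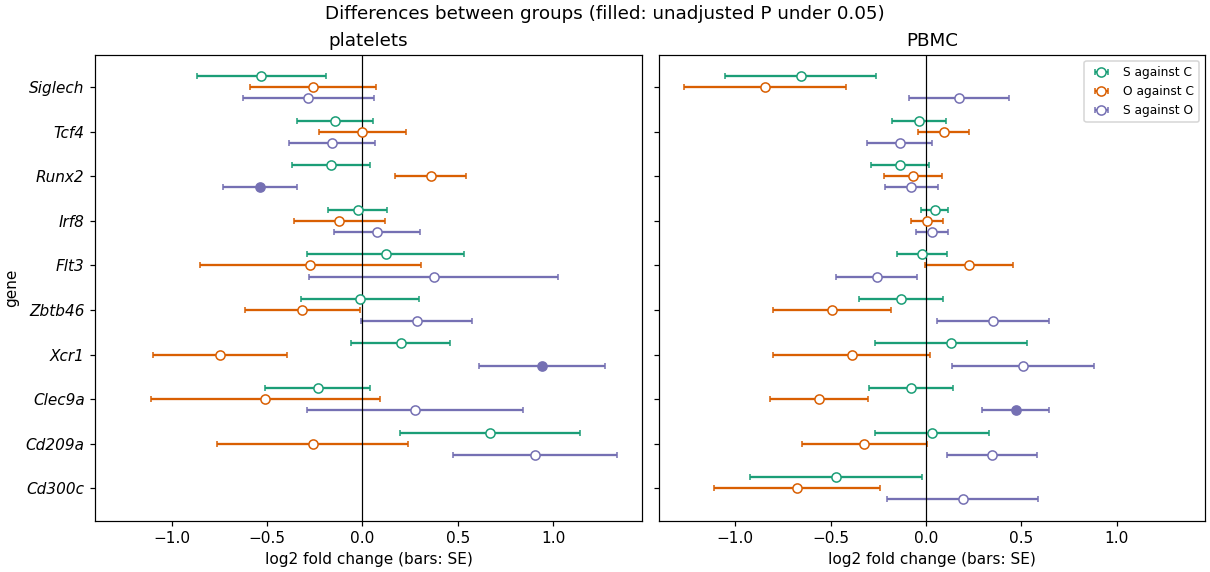
Log2 fold change of each gene between groups in platelets (left) and PBMCs (right), bars are SE, 5 pools per group, filled circles for an unadjusted P under 0.05 by edgeR. Filled circles are Xcr1 (0.94) and Runx2 (−0.54) in platelets and Clec9a (0.47) in PBMCs, all in S against O; Cd300c was not tested in platelets.

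In PBMCs all 10 genes were tested. None was called in S group against C group, where 2.64% of all genes were called, and none in O group against C group, where 11.9% were called. In S group against O group 1 of the 10 was called, Clec9a, which was higher, where 12.2% of all genes were called and 4.43% were called higher. No gene of the 14726 and 14686 tested in the comparisons with O group passed an adjusted P of 0.05 by edgeR, where 1759 and 1796 had an unadjusted P under 0.05 and DESeq2 called 244 and 236 genes after adjustment. Clec9a was 4.55, 3.54, 4.38, 4.88 and 4.42 CPM in S group, 2.33, 2.85, 4.33, 2.94 and 3.17 CPM in O group and 3.05, 5.64, 4.63, 3.14 and 6.79 CPM in C group. O pool 3 alone lay within the S range. The log2 fold change of S against O was 0.47 (SE 0.18, adjusted P = 0.344), and it missed the threshold without S pool 4 (0.43, adjusted P = 0.483) or O pool 2 (0.44, adjusted P = 0.422), and with all 3 groups in 1 fit (0.47, adjusted P = 0.328). Equal replicate numbers were taken as pairs of these PBMC pools because their deviations correlated, and no label gives pairs. With these numbers as a block, Clec9a kept its call (0.49, adjusted P = 0.341). Cd209a was called beside it (0.36, SE 0.10, adjusted P = 0.340). Cd209a was 13.4, 13.7, 12.5, 8.46 and 18.1 CPM in S group and 8.40, 12.3, 10.6, 6.56 and 13.8 CPM in O group, higher in S group in 5 of 5 pairs of equal number, as were Clec9a and Zbtb46. Its fold change without the block was 0.35 (SE 0.24, adjusted P = 0.557).

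Siglech was spread widest among the C pools of PBMCs, at 2.22, 9.96, 6.71, 8.59 and 16.1 CPM, against 3.92, 3.87, 5.19, 7.83 and 6.35 CPM in S group and 3.88, 2.93, 6.06, 4.70 and 6.403 CPM in O group. C pool 1 was the lowest of all 15 PBMC libraries and the other 4 C pools lay above every O pool. The log2 fold change was −0.84 (SE 0.43, adjusted P = 0.451) in O against C and −0.66 (SE 0.39, adjusted P = 1.00) in S against C. Neither passed. Without C pool 1 both passed, at −1.09 (SE 0.30, adjusted P = 0.552) and −0.90 (SE 0.27, adjusted P = 1.00), and both passed with every gene kept (−0.86, adjusted P = 0.597 and −0.67, adjusted P = 0.621). O against C of Siglech passed also with DESeq2 (−0.84, adjusted P = 0.253), with all 3 groups in 1 fit (−0.85, adjusted P = 0.353) and with total counts (−1.18, adjusted P = 0.161). Clec9a in O against C gave −0.56 (SE 0.26, adjusted P = 0.426), which did not pass, and passed without C pool 1 (−0.68, adjusted P = 0.552), C pool 4 (−0.67, adjusted P = 0.424) or O pool 3 (−0.71, adjusted P = 0.349). It passed likewise with DESeq2 (−0.55, adjusted P = 0.272), with all 3 groups in 1 fit (−0.56, adjusted P = 0.292), with every gene kept (−0.58, adjusted P = 0.594) and with total counts (−0.91, adjusted P = 0.161), but not with RLE factors (−0.55, adjusted P = 0.426). Irf8 was the steadiest, with group means of 246.1 ± 17.6, 251.6 ± 16.4 and 246.6 ± 20.2 CPM in C, S and O group (SD, n = 5). Tcf4 means were 85.0 ± 10.6, 82.1 ± 17.0 and 90.4 ± 16.04 CPM, Runx2 means 48.8 ± 9.73, 44.0 ± 7.18 and 46.5 ± 7.33 CPM, and Flt3 means 19.7 ± 4.29, 19.2 ± 1.89 and 23.1 ± 8.02 CPM in the same order. Runx2 was lower in S than in C group in 5 of 5 pairs of equal number, and with the pairs as a block it was not called (−0.13, SE 0.06, adjusted P = 0.999). Xcr1 had 5 to 42 counts in a PBMC library and Cd300c 5 to 43, which limits the precision of their group differences (SE 0.37 to 0.45 on the log2 scale).

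Whether a change differed between platelets and PBMCs was tested as an interaction over all 30 libraries. Runx2 alone of the 10 genes passed, in O against C and in S against O. Its response in platelets minus that in PBMCs was 0.53 (SE 0.23, adjusted P = 0.701) in O against C, where 6.59% of all genes passed, and −0.59 (SE 0.23, adjusted P = 0.273) in S against O, where 13.6% passed. Neither passed with RLE size factors, DESeq2 or all genes with at least 1 count. Single libraries also decided both. The S against O value fell short without S pool 3 (−0.32, adjusted P = 0.677), C pool 1 (−0.39, adjusted P = 0.473), O pool 1 (−0.38, adjusted P = 0.404) or O pool 5 (−0.39, adjusted P = 0.516) of platelets. The O against C value kept its call in 19 of 30 refits, and fell short without platelet C pool 1 (0.36), C pool 4 (0.48), C pool 5 (0.49), S pool 3 (0.39), O pool 1 (0.38), O pool 4 (0.44) or O pool 5 (0.36) and without PBMC C pool 3 (0.47), C pool 5 (0.49), O pool 1 (0.46) or O pool 5 (0.48). In S against C none of the 10 passed, against 5.38% of all genes. Both passing contrasts share the O libraries.

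Other genes of the dendritic lineage were followed as lists. Among 15 further genes listed for plasmacytoid cells, 2 of 14 tested rose in S against C of platelets, where 4.29% of all genes were called higher. They were Tlr9, the DNA sensor, by a log2 fold change of 0.97 (SE 0.30, adjusted P = 0.746) and Ly6d, a surface protein of lymphoid precursors and B cells, by 0.46 (SE 0.21, adjusted P = 0.769). None fell. The median of the list was 0.14, beside −0.01 for all genes. In the same comparison 4 of 10 B cell and 5 of 10 T cell markers also rose. Which cells gave the Tlr9 and Ly6d reads was not tested. Both also passed in S against O, Ly6d with 1.03 (adjusted P = 0.225) and Tlr9 with 0.91 (adjusted P = 0.302), beside 7.23% of all genes called higher, while Ly6d fell in O against C (−0.60, adjusted P = 0.91) as the only 1 of 15, beside 2.17% of all genes called lower. Tlr9 stood at 5.02 ± 1.42, 9.86 ± 5.19 and 5.14 ± 1.41 CPM in C, S and O platelets (SD, n = 5). In PBMCs none of the 13 tested rose in S against C or O against C, while 1 fell in the former (2.64% of all genes were called in either direction) and 3 in the latter (4.39% of all genes were called lower). Pacsin1, an endocytic adaptor, fell in S against C (−0.21, adjusted P = 1.00) and in O against C (−0.45, adjusted P = 0.337), the latter with Cd7 (−0.36, adjusted P = 0.339) and Mzb1 (−0.29, adjusted P = 0.412). Cd7 (0.38, adjusted P = 0.315) and Mzb1 (0.34, adjusted P = 0.368) rose in S against O of PBMCs, where 4.43% of all genes were called higher. No gene of the list fell there. In that comparison 8 of 10 T cell and 9 of 10 NK cell markers also rose. In O against C of PBMCs 8 of 10 T cell and 3 of 10 NK cell markers fell. Which cells gave the Cd7 and Mzb1 reads was not tested.

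Of 10 genes of activated dendritic cells, 8 were tested in platelets. In S against C 3 rose and 1 fell, where 4.29% of all genes were called higher and 283 of 13268 lower. In O against C 2 fell and none rose, where 2.17% of all genes were called lower and 2.61% higher. In S against O 3 rose and none fell, where 7.23% of all genes were called higher. Ccr7, the homing receptor to lymph nodes, which naive T cells also carry, was 25.4 ± 4.17 CPM in C group, 43.0 ± 15.4 CPM in S group and 15.9 ± 6.57 CPM in O group. It rose in S against C (0.75, SE 0.23, adjusted P = 0.746) and in S against O (1.41, SE 0.33, adjusted P = 0.225) and fell in O against C (−0.69, SE 0.27, adjusted P = 0.91). Cd83 rose in S against C (0.46, adjusted P = 0.752) and in S against O (0.93, adjusted P = 0.225) and fell in O against C (−0.49, adjusted P = 0.91). Cd40, a costimulatory receptor shared with B cells, rose in S against C (0.79, adjusted P = 0.746) and in S against O (0.85, adjusted P = 0.325). Fscn1, encoding an actin-bundling protein, fell in S against C (−0.47, adjusted P = 0.769). With 8 genes of the list tested, the medians of the list were 0.28 in S against C, 0.72 in S against O and −0.49 in O against C, beside all-gene medians of −0.01. In PBMCs none of the 7 tested passed in S against C. Fscn1 fell in O against C (−0.86, adjusted P = 0.339), where 4.39% of all genes were called lower. In S against O Fscn1 rose (0.77, adjusted P = 0.349) and Cd80 fell (−0.49), where 4.43% of all genes were called higher and 7.8% lower. None of these list genes passed an adjusted P of 0.05 in any of the 6 comparisons.

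Lists of conventional cells were read in the same way. Of the type 1 list 10 genes were tested in platelets, none passed in S against C or O against C, and in S against O the integrin gene Itgae rose (1.23, adjusted P = 0.337) and Snx22 fell (−2.79, adjusted P = 0.321), 1 of 10 each way beside 7.23% of all genes higher and 6.67% lower. In PBMCs, Snx22 rose in O against C (3.11, adjusted P = 0.346) and was the only 1 of 11 to pass, beside 7.56% of all genes higher. In S against O of PBMCs Itgae rose and Ppt1, Snx22 and Naaa fell, 1 and 3 of 11 beside 4.43% of all genes higher and 7.8% lower. The Snx22 values rest on 1 O pool in each sample type, with a highest level of 26.7 CPM beside a median of 1.01 CPM in O platelets and 37.6 CPM beside 1.76 CPM in O PBMCs. Of the type 2 list, 8 were tested in S against O of platelets, where Itgax, the gene of CD11c, rose (0.94, adjusted P = 0.296) together with Mgl2 (1.24, adjusted P = 0.333), and Clec4a2 fell (−0.92, adjusted P = 0.357), 3 of 8 beside 13.9% of all genes called. Sirpa fell in S against O of PBMCs (−0.36, adjusted P = 0.366) as the only 1 of 11, beside 12.2% of all genes called. None of the type 2 list passed in the comparisons with C group. Between the sample types 9 of the 12 type 1 genes, with Naaa, Itgae and Btla first, and 7 of 11 type 2 genes were lower in platelets in the fit over all libraries, and Cadm1 of type 1 and Esam and Mgl2 of type 2 were higher, where 45.7% of all genes were called lower and 36.1% higher.

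Of 15 partners of the markers (ligands, adaptors and cofactors), none passed in S against C in either sample type or in O against C of platelets. In S against O, 1 rose and 2 fell in platelets (7.23% of all genes higher and 6.67% lower) and 1 rose and 3 fell in PBMCs (4.43% higher and 7.8% lower), and in O against C of PBMCs 3 rose and 1 fell (7.56% higher and 4.39% lower). Flt3l, the ligand of Flt3, was higher in S against O in platelets (0.90, SE 0.40, adjusted P = 0.353) and in PBMCs (0.28, SE 0.11, adjusted P = 0.361), and fell in O against C of PBMCs (−0.26, SE 0.08, adjusted P = 0.339). Flt3 itself did not pass (0.37, adjusted P = 0.826 in S against O of platelets and −0.26, adjusted P = 0.621 in PBMCs). Spi1, encoding PU.1, fell in S against O of platelets (−0.55, adjusted P = 0.258) and of PBMCs (−0.30, adjusted P = 0.387) and rose in O against C of PBMCs (0.35, adjusted P = 0.379). Tyrobp, the adaptor through which Siglec-H signals, fell in S against O of PBMCs (−0.39, adjusted P = 0.33), as did Fcer1g, a related adaptor (−0.41, adjusted P = 0.349). The other calls were Nfil3, a transcription factor, lower in S against O of platelets (−0.53, adjusted P = 0.348), and the kinase Syk (0.27, adjusted P = 0.368) and Stat3 (0.21, adjusted P = 0.373), which acts downstream of Flt3, higher in O against C of PBMCs.

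**Figure D5:**
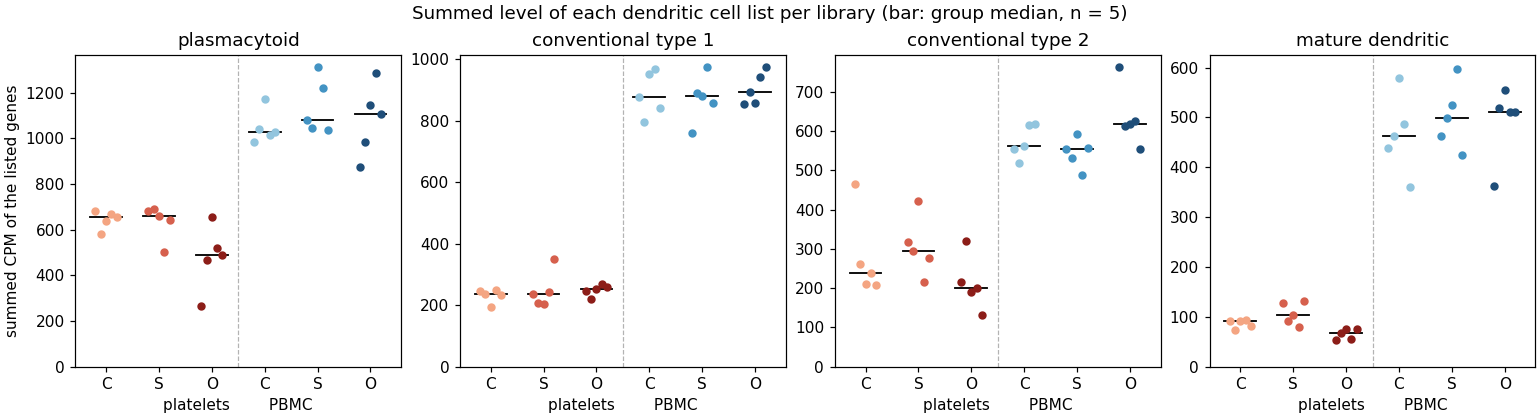
Summed CPM per library of the genes listed for plasmacytoid, type 1 conventional, type 2 conventional and mature dendritic cells (15, 12, 12 and 10 genes), by group and sample type, on the separate scale of each sample type; points are libraries and bars are medians of 5 pools. Mature dendritic genes ran from 74.2 to 93.2 CPM in C platelets, 80.0 to 131.9 CPM in S platelets and 53.1 to 76.4 CPM in O platelets.

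Markers of other blood cells moved beside these genes. In platelets 4 of 10 B cell markers (4.29% of all genes were called higher) and 5 of 10 T cell markers rose in S against C, and 7 and 8 of 10 rose in S against O (7.23% of all genes were called higher and 6.67% lower), with Cd79a, Cd79b and Fcer2a and Cd5, Cd4 and Cd6 having the smallest P. The summed B cell markers ran from 688.7 to 812.0 CPM in C platelets, 716.6 to 1511 CPM in S platelets (1022 at most without S pool 5) and 406.3 to 794.9 CPM in O platelets, and the T cell markers from 259.8 to 453.9, 329.6 to 471.7 and 236.7 to 456.8 CPM. The T cell sum includes Lat, the only 1 of 10 T cell markers called higher in platelets than in PBMCs (8 were called lower). In that comparison 36.1% of all genes were called higher and 45.7% lower. The part of Lat in the sum was not tested. For NK cells 2 of 10 markers rose in S against C and 3 of 10 in S against O of platelets, and for monocytes none and 4 of 10. The B cell count in S against C was 1 without S pool 5, and the monocyte count in S against O lay between 0 and 6 when single pools were left out. Neutrophil markers, S100a9, S100a8 and Ngp first, fell in S against O of platelets for 5 of 9 and summed to 140.0 to 691.5 CPM in C, 180.7 to 321.0 CPM in S and 312.6 to 3576 CPM in O platelets. The highest value was that of O pool 1, and the other 4 O pools lay between 312.6 and 574.7 CPM. Without O pool 1 the neutrophil markers had 2 lower and 1 higher in S against O and no call in O against C. In O against C of platelets 3 of 10 B cell and 4 of 10 T cell markers fell and 4 of 9 neutrophil markers rose, beside 2.17% of all genes lower and 2.61% higher. The T cell count there was 1 without C pool 1, O pool 2 or O pool 4. In PBMCs none of these leukocyte lists had a call in S against C. In O against C of PBMCs, 8 of 10 T cell and 3 of 10 NK cell markers fell, and 9 of 9 erythroid markers and 1 of 10 neutrophil markers rose, where 4.39% of all genes were called lower and 7.56% higher. In S against O of PBMCs, where 4.43% of all genes were called higher and 7.8% lower, 8 of 10 T cell markers and 9 of 10 NK cell markers rose, 3 of 10 neutrophil markers fell and 9 of 9 erythroid markers fell, the erythroid sum being 30430 to 85210 CPM in S group and 61460 to 500100 CPM in O group. Without O pool 1 of PBMCs no neutrophil marker was called in either comparison with O group. Erythroid markers summed to 55240 to 354300, 89760 to 243400 and 45710 to 750800 CPM in C, S and O platelets. O pool 1 was again the highest, and the next highest O pool was at 210100 CPM. In S against O of platelets 2 of 9 erythroid markers, Epb42 (−2.58, adjusted P = 0.324) and Slc4a1 (−2.50, adjusted P = 0.348), fell, and none without O pool 1. Melanocyte and melanoma markers summed to 1.61 to 6.72 CPM in platelets, and Tyr, Mlana, Slc45a2 and Oca2 were at 0 counts in S platelets. Of the 2 tested there, Mitf, which other cell types also express, rose in O against C (1.19, adjusted P = 0.91) and fell in S against O (−0.95, adjusted P = 0.315), and of the 3 tested in PBMCs Gpnmb, also a macrophage gene, fell in S against C (−1.21, adjusted P = 1.00). The part of these cell types in the changes of Xcr1, Runx2, Clec9a and the listed genes was not tested.

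The genes whose pattern over the 15 libraries of a sample type was most like that of a marker were found by the root mean square difference of centred log2 CPM. In platelets Irf8 was nearest to Gimap4 (0.0947) and Psmb9 (0.103), among 12927 genes searched and with an SD of Irf8 itself of 0.299. Xcr1 was nearest to Inafm2 (0.209) and Tmem140 (0.245) with an SD of 0.686, Clec9a to Hspd1-ps4 (0.267) and Oit3 (0.278) with an SD of 1.17, and Runx2 to Dld (0.158) and Cstf3 (0.162) with an SD of 0.333. Cd209a was nearest to Alg1 (0.343) and the antigen presentation gene H2-DMb1 (0.361) with an SD of 0.836. In PBMCs Irf8 was nearest to Rnf41 (0.0597) and Fkbp15 (0.0617), Tcf4 to Setd2 (0.0664) and Nufip2 (0.0720), and Siglech to Adam11 (0.382) and Gm10451 (0.450), with SDs of 0.0994, 0.260 and 0.706. The 15 libraries of a sample type are shared by all these comparisons.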

How the data were processed

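RNA of 15 platelet pools and 15 PBMC pools was sequenced. The authors removed adapter, poly-N and low-quality reads, aligned with HISAT2 2.0.5 and deposited raw counts per gene from featureCounts 1.5.0-p3; their DESeq2 was 1.16.1. The submitters' processing notes name mm9, but the coordinates given are GRCm38. Groups were taken from titles. The 10 genes, the gene lists and the tests were chosen with earlier results of these data known.

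Group pairs were fitted separately in edgeR 4.0.16 (R 4.3.3; filterByExpr, TMM, quasi-likelihood F test, two-sided) over all genes. A gene was called at an unadjusted P under 0.05, with Benjamini-Hochberg adjusted P beside it; every P in the text comes from edgeR fits across all genes unless DESeq2 is named. Platelets against PBMCs and interactions used all 30 libraries. Tests were checked on simulated data. DESeq2 1.42.0, RLE factors, no expression filter, all groups in 1 fit, a replicate block, and omission of each pool were tried, and total-count scaling was added after seeing the data. From each list at most the 3 genes with the smallest P per comparison are named; Clec1b and Fyco1 were added after values were seen, as were a few further values of genes so named. No label gives pairs of pools. Equal replicate numbers were taken as pairs where all 5 correlated above 0.1 in their deviations from the group means, in these same data. PBMC pools of S and C (0.235 to 0.523) and of S and O (0.118 to 0.348) met this, and the other comparisons did not. Platelet O against C met it for 4 of 5 numbers (−0.0536 to 0.426). P values measure the spread between pools, and no libraries were duplicates. Depth limits genes with few counts, Cd300c and PBMC Xcr1 most.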

Additional observations from a re-analysis of the deposited data

Results flagged for a closer look

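Single pools stood far from the other 4 of their group in 5 of the 60 groups of libraries looked at, and chance sets about 1 group in 20 apart. For Irf8 in platelets, S pool 1 was the highest of S group at 130 CPM and O pool 1 the lowest of O group at 56.4 CPM. For Xcr1 in platelets, C pool 1 was the highest of C group at 14.2 CPM and O pool 2 the highest of O group at 10.1 CPM. For Zbtb46 in PBMCs, C pool 5 was the highest of C group at 4.78 CPM. The response of Runx2 in platelets minus that in PBMCs was 0.53 in O against C and −0.59 in S against O on the log2 scale, by an interaction test over all 30 libraries (both at an unadjusted P under 0.05, adjusted P = 0.701 and 0.273, edgeR). Leaving out single libraries, it ranged from 0.36 to 0.64 and kept its call in 19 of 30 refits in O against C, and from −0.69 to −0.32 and in 26 of 30 in S against O, with the value furthest from the full fit without platelet S pool 3 (−0.32).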

How the results depend on the processing

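Total-count scaling, chosen after seeing the data, reversed 5 platelet against PBMC values: Siglech to −0.92, Tcf4 to −1.15, Irf8 to −1.08, Zbtb46 to −0.33 and Cd300c to −0.99. It changed the members called to 1 in platelet S against C (from 0). All genes were then 1367 higher and 32 lower, against 569 and 283. Platelet S against O had 1 member (from 2), with all genes at 765 and 278 against 962 and 887. PBMC O against C had 3 (Siglech, Clec9a and Cd300c, from 0), with 327 and 4076 against 1113 and 646. PBMC S against O had 2 (from 1), with 3571 and 347 against 651 and 1145. The S against O interaction had 0 (from 1), with 613 and 563 against 967 and 1278. Platelets against PBMCs had 9 (from 6), with 2351 and 12728 against 5962 and 7537. There Siglech, Tcf4, Irf8 and Cd300c were then called lower and Zbtb46 lost its call (adjusted P = 0.165). With every gene kept, 1 member was called in platelet O against C (Xcr1, 1547 of 25865 genes called) and 1 in PBMC S against C (Siglech, 1512 of 36532). Of those 1512 genes 1157 were higher and 355 lower, against 186 and 214 in the main fit. In PBMC O against C 2 members were called (Siglech and Clec9a, 2401 of 28890 genes). In the O against C and S against O interactions it was 0 (1875 and 3127 of 38098 genes). RLE factors (973 and 2014 of 16498 genes called) and DESeq2 (1207 and 2349) each gave 0 in both interactions. DESeq2 gave 2 in PBMC O against C (Siglech and Clec9a), where 2232 of 14726 genes were called. With all 3 groups in 1 fit the count was 1 in platelet O against C (Xcr1, 954 of 13878 genes called). It was 2 in PBMC O against C (Siglech and Clec9a, 2114 of 15398) and 0 in PBMC S against O (2438 of 15398). The replicate block gave 1 in platelet O against C (Xcr1, −0.80, adjusted P = 0.754, 863 of 13270 genes called). In PBMC O against C it gave 1 (Clec9a, −0.55, adjusted P = 0.405, 1801 of 14726). In each of these 2 comparisons the numbers are only shared (correlation over 0.1 for 4 of 5). The block gave 2 in PBMC S against O (2023 of 14686) and none in PBMC S against C (651 of 15139), where the numbers were taken as pairs. Platelet S against O went from 2 to 3 members, with Cd209a added, with every gene kept (0.90, adjusted P = 0.427, 3131 of 26884 genes called). The same held with DESeq2 (0.91, adjusted P = 0.282, 2118 of 13306) and with the block (0.87, adjusted P = 0.350, 1545 of 13306). The cause of these changes was not tested.

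Leaving out each pool in turn gave 0 to 1 members called in platelet S against C, 0 to 3 in platelet O against C, 1 to 3 in platelet S against O, 0 to 1 in PBMC S against C, 0 to 2 in PBMC O against C, 0 to 1 in PBMC S against O, 6 to 7 in platelets against PBMCs and 0 to 1 in each of the 3 interactions. Of the log2 fold changes followed, 368 of these refits kept direction and side of the threshold, 18 were weaker, 4 were stronger and none was reversed.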
